A study of Danio rerio with 18 samples.

Results

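Scoliotic *kif7co63/co63* zebrafish were compared with *kif7co63/+* zebrafish at 6 weeks past fertilization (wpf), across every gene of the count table. The 6 libraries were chosen by genotype, age and curvature as the sample labels give them: 3 scoliotic homozygotes and 3 heterozygotes, of 18 libraries in the series. Each library holds poly-A selected RNA of 1 whole fish. Both groups carry *kif7co63*, a CRISPR-Cas9 allele with a small in-frame change that adds amino acids to Kif7, on 2 chromosomes in scoliotic fish and on 1 in heterozygotes, so no fish of this comparison was free of the allele. All fish were kept under 14 h of light and 10 h of dark, and no other treatment is given. The homozygotes came from crosses among homozygotes, in a line outcrossed to AB, the wild-type strain. Which cross gave the sequenced heterozygotes, the sex of the fish and the hour of sampling are not given in the sources used here. Levels in 3 non-scoliotic *kif7co63/co63* fish and 3 AB fish of the same age are set beside the main values where they help to place them.

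Kif7 is a kinesin that organizes the tip of the primary cilium and acts in the hedgehog pathway between Smoothened and the Gli transcription factors. Hedgehog ligands made in the notochord and floor plate pattern the neural tube and somites, and in the skeleton Indian hedgehog controls how cartilage cells divide and mature. The zebrafish spine forms around the notochord, whose sheath and whose surrounding bone and cartilage are rich in collagens. In zebrafish, lesions of motile cilia, of the Reissner fiber and of muscle or extracellular matrix genes are known to bend the body axis, and the gene groups below were drawn up with these tissues in mind.

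The libraries held 47888282 to 49637527 counted reads in scoliotic fish, against 49434684 to 53862782 in heterozygotes. Levels are given as CPM, the counts of a gene per 1000000 reads of its library, with TMM factors that set the libraries to a common centre. The first principal component of log2 CPM took 68.5% of the variance and placed the scoliotic fish at 52.0, 136.8 and 94.4, against −95.7, −87.0 and −100.5 for the heterozygotes. The groups were thus apart on it, and the scoliotic fish were spread more widely, with scoliotic fish 2 the farthest out. Of 31901 genes, 22756 had enough reads to be tested with the quasi-likelihood test of edgeR. With p-values adjusted by Benjamini-Hochberg and a threshold of 0.05, 8389 genes were called, which is 36.9% of those tested: 4190 rose in scoliotic fish (18.4%) and 4199 fell (18.5%). The median log2 fold change over all genes tested was −0.019. Among the called genes, 1345 rose and 2394 fell by more than 2-fold, and 259 rose and 1087 fell by more than 4-fold. In 12051 genes (53.0%) the 3 scoliotic and 3 heterozygous fish did not overlap. Without heterozygote 1 the number of called genes was 5318, and DESeq2 called 9533. The p-values measure the spread between these single fish, and nothing in the sources says whether fish of a group shared parents or a tank. Since whole fish were sequenced, fewer cells of a type and less RNA per cell cannot be told apart.

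The targeted gene came first. *kif7* (chromosome 7, 14393059 to 14446512, GRCz11) had 26.4, 25.9 and 28.8 CPM in scoliotic fish, against 24.4, 23.6 and 32.3 CPM in heterozygotes. The ranges overlap, and the log2 fold change was 0.012 with an SE of 0.15 and an adjusted p of 0.96. Non-scoliotic homozygotes had 27.1, 25.5 and 29.8 CPM and AB fish 41.7, 42.8 and 47.7 CPM, so carriers of 1 or 2 copies sat below the 3 AB fish. The *kif7* level thus did not tell homozygotes from heterozygotes, and the cause of the lower level than in AB fish was not tested. The allele changes a short stretch within the coding sequence, and reads over the rest of the gene are still counted.

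In the hedgehog pathway, 35 members were tested, of which 12 rose and 2 fell, with a median log2 fold change of 0.21. The share that rose, 34.3%, lies above the 18.4% of all genes. Without heterozygote 1, 8 rose and 1 fell. *boc*, a co-receptor that binds hedgehog ligands, had 78.6, 97.1 and 86.5 CPM in scoliotic fish, against 54.8, 53.2 and 54.6 CPM in heterozygotes (log2 fold change 0.69, SE 0.11, adjusted p = 0.00401). *dlg5a* and *dlg5b.1* encode scaffold proteins that in mammalian cells act with Kif7 at the cilium tip, and rose with log2 fold changes of 0.53 and 0.51. *dlg5a* had 75.8, 75.3 and 72.2 CPM in scoliotic fish, against 50.7, 50.9 and 52.8 CPM in heterozygotes, with no overlap between the groups. *gli1*, the Gli factor that the pathway switches on, had 23.8, 25.9 and 26.3 CPM in scoliotic fish and 22.4, 20.7 and 22.6 CPM in heterozygotes (log2 fold change 0.21, SE 0.1, adjusted p = 0.142) and did not pass the test. *ptch1*, which encodes the hedgehog receptor Patched and is itself induced by the pathway, had 7.93, 8.08 and 6.94 CPM in scoliotic fish, against 5.23, 4.48 and 2.32 CPM in heterozygotes and was called at an adjusted p of 0.0455 with a log2 fold change of 0.93, but its adjusted p was 0.0868, 0.0878 and 0.0767 without scoliotic fish 1, 2 and 3 in turn, and 0.0532 and 0.081 without heterozygote 1 and 2. AB fish had 0.139, 0.270 and 0.0286 CPM of *ptch1* and so lay below both groups. A second identifier with that symbol had no reads in these fish. Of the 2 members that fell, *ulk3*, a kinase of Gli proteins in mammalian cells, had 4.76, 3.03 and 4.04 CPM in scoliotic fish, against 7.76, 6.54 and 7.14 CPM in heterozygotes; its adjusted p was 0.017, and 0.0676 without heterozygote 1.

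Cartilage genes had the highest share of rises of all groups examined: 32 members were tested, of which 27 rose and 0 fell, with a median log2 fold change of 1.13. The collagens gave a like picture: 53 members were tested, of which 40 rose and 3 fell, with a median log2 fold change of 0.92, and some fibril collagens of cartilage stand in both groups. The shares that rose, 84.4% and 75.5%, compare with 18.4% of all genes, and no single fish changed the number that rose by more than 1.5 times. *col2a1a*, which encodes the main fibril collagen of cartilage and of the notochord sheath, had 370.3, 445 and 345 CPM in scoliotic fish, against 74.1, 84.1 and 101 CPM in heterozygotes (log2 fold change 2.16, SE 0.17, adjusted p = 0.000458). The lowest scoliotic fish thus had over 3 times the level of the highest heterozygote. *matn1*, a matrilin that links cartilage fibrils, had 486, 795 and 480.4 CPM in scoliotic fish, against 90.7, 129.6 and 109 CPM in heterozygotes (log2 fold change 2.41, SE 0.25, adjusted p = 0.000973). *acana*, the aggrecan core protein that holds water in cartilage, had 53.8, 85.5 and 49.5 CPM in scoliotic fish, against 16.2, 17.6 and 15.5 CPM in heterozygotes (log2 fold change 1.94, SE 0.22, adjusted p = 0.00124). In all of these genes the groups were well apart, and in *matn1* and *acana* scoliotic fish 2 had the highest level of the 3. *col11a1b* and *col2a1b*, partners in cartilage fibrils, rose by 1.58 and 1.81 on the log2 scale, and *lum*, a small proteoglycan that spaces collagen fibrils, by 0.84.

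The type I collagens, the bulk of the matrix of bone, skin and tendon, were the most abundant of the group. *col1a2* had 6547, 5882 and 8878 CPM in scoliotic fish, against 2665, 3003 and 3043 CPM in heterozygotes (log2 fold change 1.29, SE 0.17, adjusted p = 0.00185). *col1a1b* had 6317, 5543 and 8909.9 CPM in scoliotic fish, against 2717, 3169.8 and 3320.1 CPM in heterozygotes (log2 fold change 1.17, SE 0.19, adjusted p = 0.00414), and *col1a1a* rose by 0.88 on the log2 scale. In each of these 3 genes the lowest scoliotic fish lay well above the highest heterozygote. The 3 collagens that fell were *col19a1* (ENSDARG00000096073, −0.92), *col28a1b* (−0.85) and *col28a2a* (−0.55), and each lost its call without scoliotic fish 2, among other fish. Non-scoliotic homozygotes had 259, 319 and 478 CPM of *col2a1a* and 7751, 7983 and 7282 CPM of *col1a2*, and AB fish 158, 132 and 161 and 2823, 2682 and 2462 CPM. Set against heterozygotes, the non-scoliotic homozygotes had 39 collagens higher and 0 lower and 26 cartilage genes higher and 0 lower. Set against AB, scoliotic fish had 39 collagens higher and 2 lower, and 28 cartilage genes higher and 0 lower. Between scoliotic and non-scoliotic homozygotes no gene of either group passed the test.

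**Figure D1:**
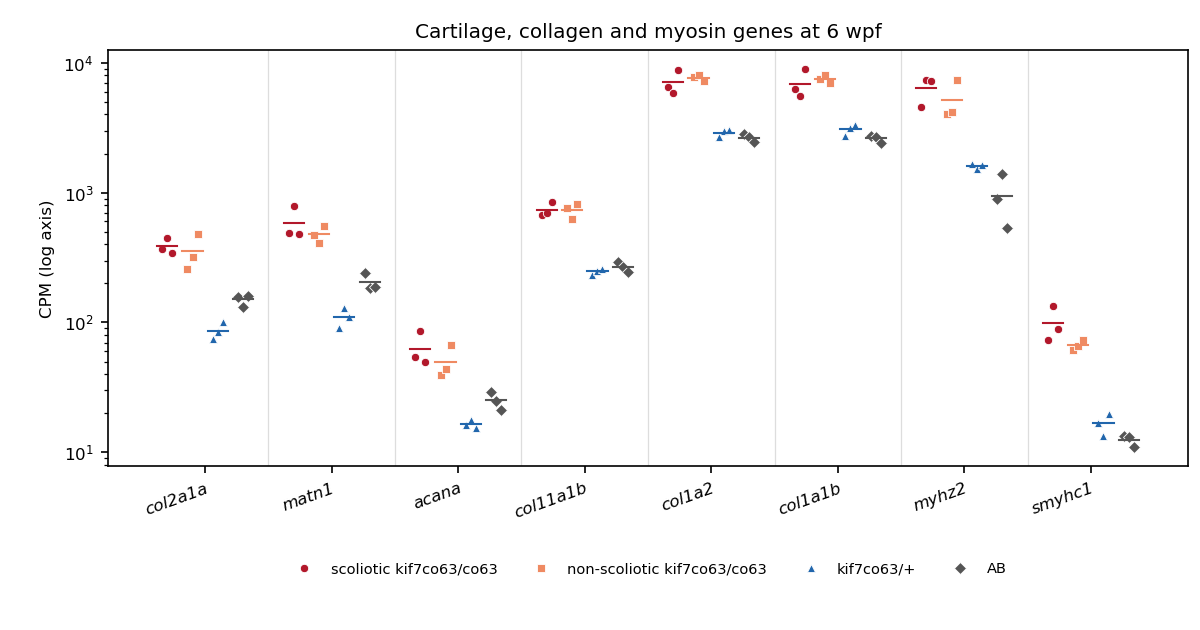
Levels of 8 cartilage, collagen and myosin genes in each fish, on a log axis in CPM, with a point per fish and a bar at the group mean for scoliotic homozygotes, non-scoliotic homozygotes, heterozygotes and AB fish (3 each). In every gene shown the 3 scoliotic fish lie above the 3 heterozygotes, as in *col2a1a* with 345 to 445 CPM against 74.1 to 101 CPM.

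Genes of bone did not move as a block, and 36.7% were called, against 36.9% of all genes. In that group, 30 members were tested, of which 7 rose and 4 fell, with a median log2 fold change of 0.088, and the 3 type I collagens above and *col10a1a* are among those that rose, of which *col10a1a* was called in 2 of the 6 fits without 1 fish. Without heterozygote 1, 3 rose and 3 fell. *phex*, an endopeptidase of osteoblasts and osteocytes needed for phosphate balance, fell to 72.5, 42.4 and 60.0 CPM in scoliotic fish, against 142, 117 and 206 CPM in heterozygotes (log2 fold change −1.41, SE 0.27, adjusted p = 0.0071). *acp5b*, a tartrate-resistant acid phosphatase of the type that marks osteoclasts, fell to 1.44, 0.752 and 1.72 CPM in scoliotic fish, against 5.82, 6.24 and 4.90 CPM in heterozygotes (log2 fold change −2.12, SE 0.33, adjusted p = 0.00354). Both were lower in every scoliotic fish than in any heterozygote. *spp1*, the bone matrix protein osteopontin, had 246, 228 and 239 CPM in scoliotic fish and 227, 256 and 231 CPM in heterozygotes with a log2 fold change of −0.0031 and an adjusted p of 0.985. *sp7*, the osteoblast factor Osterix, had 73.6, 39.7 and 83.1 CPM in scoliotic fish and 39.6, 40.8 and 35.7 CPM in heterozygotes (log2 fold change 0.76, SE 0.26, adjusted p = 0.057); without scoliotic fish 2 the adjusted p was 0.00251 and the log2 fold change 1.02. The marker *bglap*, osteocalcin, had no reads in any of the 6 fish.

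In the notochord group, which also holds genes of caveolae, 20 members were tested, of which 6 rose and 3 fell, with a median log2 fold change of 0.55. In whole fish the tissue that gave their reads cannot be told. The shares were 30% that rose and 15% that fell, against 18.4% and 18.5% of all genes. Without heterozygote 1, 3 rose and 3 fell. *cavin4b*, a coat protein of the membrane pits called caveolae, had 275, 249 and 281 CPM in scoliotic fish, against 112, 123 and 112 CPM in heterozygotes (log2 fold change 1.22, SE 0.11, adjusted p = 0.000711). *loxl2b*, an enzyme that cross-links collagen, had 132, 100.5 and 134 CPM in scoliotic fish, against 52.9, 65.5 and 56.6 CPM in heterozygotes (log2 fold change 1.06, SE 0.15, adjusted p = 0.00276). Among the 3 that fell, *cav2*, a caveolin, had 15.4, 18.6 and 15.1 CPM in scoliotic fish, against 34.2, 31.3 and 27.0 CPM in heterozygotes (log2 fold change −0.91, SE 0.14, adjusted p = 0.00293), and *dstyk*, a kinase needed for notochord vacuoles in zebrafish, had 64.8, 66.9 and 58.5 CPM in scoliotic fish, against 102, 97.2 and 116 CPM in heterozygotes (log2 fold change −0.73, SE 0.11, adjusted p = 0.00358). The third, *ntd5*, had 2.99, 2.75 and 2.98 CPM in scoliotic fish, against 7.25, 8.32 and 6.24 CPM in heterozygotes. Members of the group were called in both directions, as genes were over the whole comparison. The caveolar genes also split, with *cavin4a* at 0.62 and *cav1* not called at 0.09 (adjusted p = 0.602).

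Muscle genes are given by class of protein. Of the myosin heavy chains, the motors of the thick filament, 22 members were tested, of which 18 rose and 0 fell, with a median log2 fold change of 1.04, a share of 81.8% that rose. *myhz2*, a fast skeletal myosin, had 4589, 7329 and 7276 CPM in scoliotic fish, against 1668, 1519 and 1627 CPM in heterozygotes (log2 fold change 2.00, SE 0.19, adjusted p = 0.000759). *smyhc1*, the slow-fiber myosin, had 73.3, 135 and 89.7 CPM in scoliotic fish, against 16.9, 13.3 and 19.9 CPM in heterozygotes (log2 fold change 2.58, SE 0.26, adjusted p = 0.000922). *myhz1.2* had 1432, 4212 and 1635 CPM in scoliotic fish, against 351, 303 and 568 CPM in heterozygotes; its log2 fold change was 2.58, and 1.92 without scoliotic fish 2, which had the highest level. The fast myosin genes are near-identical copies in a row on the chromosome, so the split of reads among them is uncertain, while every scoliotic fish lay above every heterozygote in each of the 3. The other contractile genes were mixed: among troponins, tropomyosins and myosin light chains, 43 members were tested, of which 11 rose and 4 fell, with a median log2 fold change of 0.27. That is 34.9% called, near the 36.9% of all genes. Without heterozygote 1, 5 rose and 3 fell of 44 tested, and without heterozygote 3, 6 rose and 4 fell of 44 tested. *myl1*, the fast essential light chain, had 2426, 2229 and 3134 CPM in scoliotic fish, against 1274, 1363 and 1208 CPM in heterozygotes (log2 fold change 1.02, SE 0.15, adjusted p = 0.00278), while *tnni2a.1*, a fast troponin I, had 91.3, 91.1 and 101 CPM in scoliotic fish, against 176, 157 and 129 CPM in heterozygotes (log2 fold change −0.71, SE 0.14, adjusted p = 0.00815).

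The parvalbumins, calcium buffers that speed the relaxation of fast fibers, went the other way, with 6 tested, 0 that rose and 3 that fell. *pvalb4* had 1202, 1035 and 1357 CPM in scoliotic fish, against 2482, 2777 and 1877 CPM in heterozygotes (log2 fold change −0.99, SE 0.17, adjusted p = 0.00553), and *pvalb7* had 2.00, 2.30 and 2.62 CPM in scoliotic fish, against 8.28, 6.06 and 7.98 CPM in heterozygotes (log2 fold change −1.69, SE 0.21, adjusted p = 0.00156). AB fish had 1206, 1415 and 1388 CPM of *pvalb4*, near the scoliotic fish, and 895, 1381 and 532 CPM of *myhz2*, below them. *myl6*, a light chain of smooth muscle and non-muscle cells, fell to 10.8, 14.7 and 11.9 CPM in scoliotic fish, against 36.4, 20.0 and 25 CPM in heterozygotes (log2 fold change −1.12, SE 0.23, adjusted p = 0.00991), and non-scoliotic homozygotes had 0.0161, 0.0573 and 0.0694 CPM, with scoliotic fish higher than they were (adjusted p = 0.00122).

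Transcripts of adult globins, the oxygen carriers of red cells, were higher in scoliotic fish: 5 were tested, 4 rose and 0 fell. Without heterozygote 1, 2 rose and 0 fell, and without heterozygote 3, 2 rose and 0 fell. *hbaa1*, an adult alpha globin, had 3139, 2636 and 2947 CPM in scoliotic fish, against 1057, 1669.8 and 1125 CPM in heterozygotes (log2 fold change 1.18, SE 0.19, adjusted p = 0.00426). A gene with the symbol *hbba1* (ENSDARG00000097238), an adult beta globin, had 825, 634 and 747 CPM in scoliotic fish, against 436, 408 and 239 CPM in heterozygotes (log2 fold change 1.03, SE 0.24, adjusted p = 0.0146), while a second identifier of that symbol (ENSDARG00000089087) had 1360.4, 1137 and 1218 CPM in scoliotic fish and 1203, 1261 and 787 CPM in heterozygotes and was not called. The globin copies resemble each other closely and the split of their reads is uncertain. The summed adult red cell markers ran from 3773 to 4499.8 CPM in scoliotic fish, against 1911 to 2930.4 CPM in heterozygotes. Of the embryonic globins, 5 were tested and 1 rose, *hbae1*, which was not called without heterozygote 1 or heterozygote 2, and 2 were called without scoliotic fish 1. With all fish the share that rose was 20%, against 18.4% of all genes.

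The core circadian clock had the highest share of called genes of all groups. This loop consists of activators of the Clock and Bmal families, which switch on the period and cryptochrome genes, and of the nuclear receptors Rev-erb and Ror, which repress and activate the loop in turn. In the period and cryptochrome group, 12 members were tested, of which 2 rose and 9 fell, with a median log2 fold change of −1.20, so 91.7% were called against 36.9% of all genes, with no fish whose omission changed that by more than 1.5 times. *per1a* had 0.854, 0.623 and 0.425 CPM in scoliotic fish, against 31.4, 30.7 and 32.1 CPM in heterozygotes (log2 fold change −5.62, SE 0.24, adjusted p = 8.54e-05). *per3* had 34.8, 30.8 and 37.9 CPM in scoliotic fish, against 377, 387 and 377 CPM in heterozygotes (log2 fold change −3.46, SE 0.13, adjusted p = 7.18e-05). *per1b* had 21.1, 15.4 and 18.5 CPM in scoliotic fish, against 166, 151 and 169 CPM in heterozygotes (log2 fold change −3.15, SE 0.15, adjusted p = 9.25e-05). In these 3 repressor genes the fish of each group lay close together and the groups were far apart. *per2*, which light induces directly, fell by 0.71 on the log2 scale (adjusted p = 0.0031). The 2 that rose were *cry1bb*, with 173, 155 and 177 CPM in scoliotic fish, against 42.9, 40.1 and 40.8 CPM in heterozygotes (log2 fold change 2.03, SE 0.11, adjusted p = 0.000114), and *cry4*, with 50.9, 47.1 and 46.4 CPM in scoliotic fish, against 19.8, 17.8 and 19.8 CPM in heterozygotes (log2 fold change 1.33, SE 0.095, adjusted p = 0.000295).

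The Rev-erb genes were far lower in scoliotic fish. *nr1d1* (chromosome 3, 23488652 to 23496223) had 0.652, 0.795 and 0.472 CPM in scoliotic fish, against 168, 149 and 154 CPM in heterozygotes (log2 fold change −7.93, SE 0.22, adjusted p = 1.71e-05). *nr1d2b* had 61.2, 56.3 and 57.0 CPM in scoliotic fish, against 285, 291 and 272 CPM in heterozygotes (log2 fold change −2.28, SE 0.11, adjusted p = 9.25e-05). *nr1d2a* had 12.2, 33.5 and 13.1 CPM in scoliotic fish, against 156, 126 and 149 CPM in heterozygotes, with a log2 fold change of −2.87, and of −3.50 without scoliotic fish 2, whose level was the highest of the 3. *ciarta*, a repressor of Clock and Bmal, had 3.89, 3.52 and 3.07 CPM in scoliotic fish, against 95.5, 86.7 and 89.3 CPM in heterozygotes (log2 fold change −4.69, SE 0.13, adjusted p = 1.71e-05). The receptors and activators of the opposite arm were higher. *rorcb*, a Ror receptor that activates transcription at the sites Rev-erb occupies, had 206, 228 and 203 CPM in scoliotic fish, against 17.4, 20.8 and 17.9 CPM in heterozygotes (log2 fold change 3.50, SE 0.13, adjusted p = 7.18e-05). *clocka* had 19.6, 22.2 and 20.1 CPM in scoliotic fish, against 5.98, 5.96 and 5.42 CPM in heterozygotes (log2 fold change 1.83, SE 0.12, adjusted p = 0.000252), and *clockb* rose by 1.28. Output factors of the loop fell: *dbpb*, a PAR bZIP factor, had 1.73, 1.16 and 2.15 CPM in scoliotic fish, against 16.9, 18.8 and 17.9 CPM in heterozygotes (log2 fold change −3.41, SE 0.24, adjusted p = 0.000295), and *bhlhe41*, a Dec repressor, had 4.25, 4.41 and 3.02 CPM in scoliotic fish, against 59.1, 52.2 and 49.4 CPM in heterozygotes (log2 fold change −3.78, SE 0.17, adjusted p = 9.25e-05).

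AB fish were closer to scoliotic fish than to heterozygotes in most of these genes. AB levels were 42.5, 25.6 and 35.3 CPM of *per3*, 0.901, 0.893 and 1.27 CPM of *nr1d1* and 135, 138 and 148 CPM of *rorcb*, and non-scoliotic homozygotes had 34.3, 38.4 and 32.8, 1.27, 1.05 and 1.39 and 263, 285 and 252 CPM. Set against AB, heterozygotes had 8 of the period and cryptochrome genes higher and 2 lower, and scoliotic fish 2 higher and 4 lower. The hour at which each fish was taken is not given, so genotype and hour of sampling cannot be told apart in these genes. Among the wider group of clock activators and outputs, 31 members were tested, of which 7 rose and 12 fell, with a median log2 fold change of −0.33. The shares were 22.6% that rose and 38.7% that fell, against 18.4% and 18.5% of all genes.

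**Figure D2:**
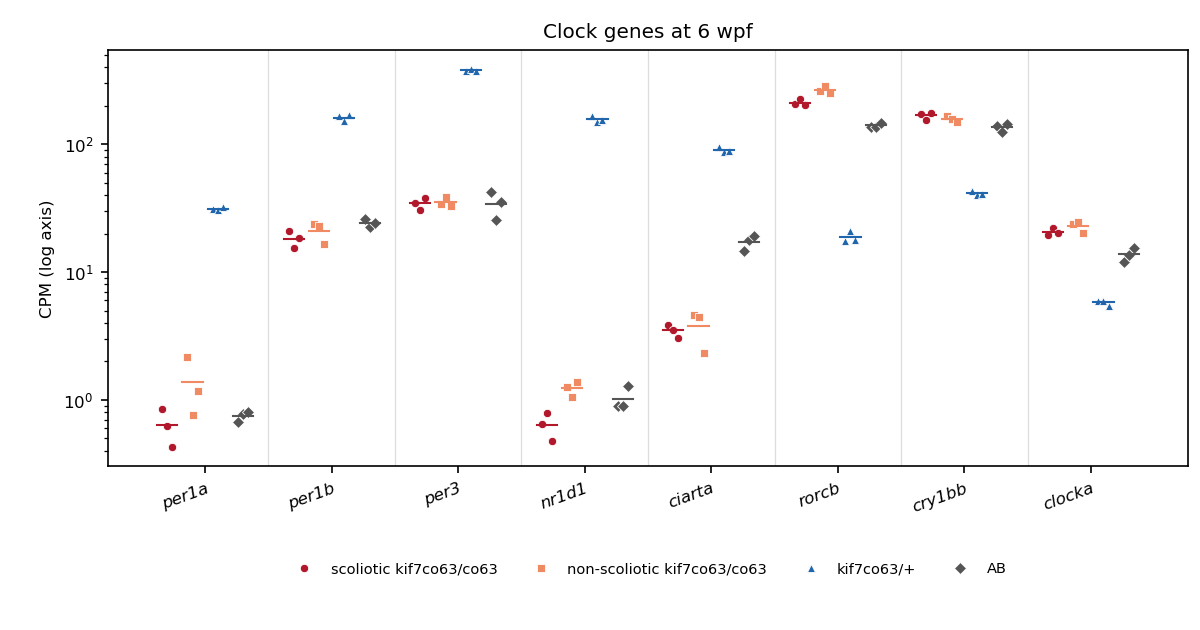
Levels of 8 clock genes in each fish, on a log axis in CPM, with a point per fish and a bar at the group mean, for scoliotic homozygotes, non-scoliotic homozygotes, heterozygotes and AB fish (3 each). The heterozygotes stand apart from the other groups in *per1a*, *per1b*, *per3*, *nr1d1* and *ciarta*, where they are higher, and in *rorcb*, *cry1bb* and *clocka*, where they are lower.

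Metabolic genes of the hormone and fasting responses also differed. In the group of glucocorticoid and starvation genes, 29 members were tested, of which 6 rose and 11 fell, with a median log2 fold change of −0.56. The shares were 20.7% that rose and 37.9% that fell, against 18.4% and 18.5% of all genes. *pck1*, the first committed enzyme of gluconeogenesis, had 66.6, 117 and 65.1 CPM in scoliotic fish, against 497, 578 and 482 CPM in heterozygotes (log2 fold change −2.65, SE 0.26, adjusted p = 0.000784). *igfbp1a*, an insulin-like growth factor binding protein that rises in fasting and hypoxia, had 20.3, 25.8 and 28.2 CPM in scoliotic fish, against 170.4, 239.8 and 149.7 CPM in heterozygotes (log2 fold change −2.92, SE 0.23, adjusted p = 0.000455). *pdk2b*, a kinase that shuts off pyruvate dehydrogenase, had 53.8, 80.2 and 42.7 CPM in scoliotic fish, against 316, 225 and 224 CPM in heterozygotes (log2 fold change −2.11, SE 0.26, adjusted p = 0.00163). These 3 genes were several-fold lower in every scoliotic fish than in any heterozygote, and *g6pca.2*, a glucose-6-phosphatase, likewise had 45.6, 161 and 66.1 CPM in scoliotic fish, against 532, 555 and 448 CPM in heterozygotes (log2 fold change −2.49, and −3.19 without scoliotic fish 2). *foxo3b*, a forkhead factor of the fasting response, rose instead, with 125, 181 and 132 CPM in scoliotic fish, against 61.3, 55.1 and 56.2 CPM in heterozygotes (log2 fold change 1.35, SE 0.16, adjusted p = 0.00153). *fkbp5*, a widely used glucocorticoid target, had 9.44, 193 and 5.57 CPM in scoliotic fish and 81.8, 59.8 and 64.6 CPM in heterozygotes (adjusted p = 0.994). Scoliotic fish 2 alone was high in it, and without that fish the log2 fold change was −3.19 and the adjusted p 0.000959. In this group heterozygotes also differed from AB, with 18 genes higher and 2 lower.

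*fosb*, an AP-1 subunit that cells make within minutes of a stimulus, had 2.25, 1.46 and 1.32 CPM in scoliotic fish, against 316, 399 and 279.8 CPM in heterozygotes (log2 fold change −7.63, SE 0.30, adjusted p = 7.18e-05). *cebpb*, a bZIP factor of liver and myeloid cells, had 57.3, 42.2 and 56.7 CPM in scoliotic fish, against 469, 598 and 369 CPM in heterozygotes (log2 fold change −3.20, SE 0.23, adjusted p = 0.000301). *mycb*, a Myc factor, had 42.7, 41.0 and 34.1 CPM in scoliotic fish, against 161, 185 and 162 CPM in heterozygotes (log2 fold change −2.11, SE 0.13, adjusted p = 0.0002). In all 3 the heterozygotes were higher than every fish of the other groups, with 1.68, 1.18 and 1.52 CPM of *fosb* and 43.3, 42.1 and 43.4 CPM of *cebpb* in AB fish. Heat shock and J-domain proteins were called at about the rate of all genes, of which 18.4% rose and 18.5% fell. Here 85 members were tested, of which 16 rose (18.8%) and 16 fell (18.8%), with a median log2 fold change of −0.0058. Without scoliotic fish 3, 12 rose and 9 fell of 86 tested, and without heterozygote 1, 9 rose and 9 fell. *hsp90aa1.1*, a chaperone that zebrafish muscle needs to fold myosin, had 715, 600.0 and 827 CPM in scoliotic fish, against 77.5, 75.9 and 84.8 CPM in heterozygotes (log2 fold change 3.17, SE 0.16, adjusted p = 0.000103). *hsf2*, a heat shock transcription factor, had 10.5, 11.4 and 9.38 CPM in scoliotic fish, against 53.4, 47.7 and 54.9 CPM in heterozygotes (log2 fold change −2.32, SE 0.12, adjusted p = 0.000103), and the inducible *hsp70l* was not called at 0.0068 (adjusted p = 0.982).

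Machinery for breaking down and making proteins moved in opposite directions. Of the proteasome genes, 52 members were tested, of which 36 rose and 1 fell, with a median log2 fold change of 0.80, a share of 69.2% that rose. *psmd1*, a subunit of the regulatory particle that receives ubiquitinated proteins, had 234, 241 and 250.0 CPM in scoliotic fish, against 99.8, 98.3 and 134 CPM in heterozygotes (log2 fold change 1.13, SE 0.15, adjusted p = 0.00211). *psma3*, a subunit of the catalytic core's outer ring, had 169.6, 182 and 161 CPM in scoliotic fish, against 83.1, 86.9 and 87.5 CPM in heterozygotes (log2 fold change 0.99, SE 0.10, adjusted p = 0.000977). Of the cytosolic ribosomal proteins, 81 members were tested, of which 1 rose and 44 fell, with a median log2 fold change of −0.39, a share of 54.3% that fell. *rps2* had 2919, 2937 and 2919.9 CPM in scoliotic fish, against 4731, 5122 and 3737 CPM in heterozygotes (log2 fold change −0.63, SE 0.13, adjusted p = 0.00884), and *rpl13a* had 42.0, 52.0 and 34.9 CPM in scoliotic fish, against 86.1, 119 and 83.8 CPM in heterozygotes (log2 fold change −1.17, SE 0.20, adjusted p = 0.00506). The 1 ribosomal gene that rose, *rps13*, had 366, 374 and 359.8 CPM in scoliotic fish, against 188, 223 and 203 CPM in heterozygotes (log2 fold change 0.84, SE 0.12, adjusted p = 0.00227). Here too the heterozygotes differed from AB, with 0 proteasome genes higher and 37 lower, and 43 ribosomal genes higher and 4 lower. Scoliotic fish set against AB had 10 proteasome genes higher and 7 lower, and 1 ribosomal gene higher and 15 lower.

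In mitochondria, 8 of the 13 genes of the mitochondrial genome rose and none fell, with a median of 0.38; without scoliotic fish 1, 5 rose. *mt-nd1*, a subunit of complex I, had 3023, 3478 and 2901 CPM in scoliotic fish, against 2082, 2200.4 and 1764 CPM in heterozygotes (log2 fold change 0.64, SE 0.12, adjusted p = 0.00752). Of the nuclear genes of oxidative phosphorylation, 93 members were tested, of which 23 rose and 14 fell, with a median log2 fold change of −0.047. That is 39.8% called, near the 36.9% of all genes. Without heterozygote 1, 15 rose and 9 fell. Within the ATP synthase, *atp5f1b*, the catalytic beta subunit, had 1758, 1761 and 1782 CPM in scoliotic fish, against 1056, 1111 and 1270.4 CPM in heterozygotes (log2 fold change 0.62, SE 0.11, adjusted p = 0.00471), while *atp5f1e*, the small epsilon subunit, had 98.1, 98.0 and 88.7 CPM in scoliotic fish, against 152, 198 and 139 CPM in heterozygotes (log2 fold change −0.78, SE 0.16, adjusted p = 0.00861). Subunits of 1 complex thus differed in direction.

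Genes of dividing cells were likewise split: of DNA replication and mitosis genes, 58 members were tested, of which 15 rose and 19 fell, with a median log2 fold change of −0.038. The shares were 25.9% that rose and 32.8% that fell, against 18.4% and 18.5% of all genes. Without scoliotic fish 3, 14 rose and 12 fell. *mki67*, present in all phases of the cell cycle of dividing cells, had 254, 274 and 239 CPM in scoliotic fish, against 78.8, 63.1 and 102 CPM in heterozygotes (log2 fold change 1.65, SE 0.19, adjusted p = 0.0012). *top2a*, which untangles chromosomes, rose by 1.36, and *pcna*, the clamp of the replication fork, by 0.79. *ccnb1*, a cyclin of mitosis that oocytes store in large amounts, fell to 67.1, 30.2 and 30.1 CPM in scoliotic fish, against 279, 187 and 447 CPM in heterozygotes (log2 fold change −2.85, SE 0.44, adjusted p = 0.00346). AB fish had 466, 493 and 512 CPM of *ccnb1*. The ovary markers given below were lower in the same fish, and their part in these falls was not tested.

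Oocyte genes were the group with the most negative median. Fish eggs are enclosed in a coat of zona pellucida proteins, and their cytoplasm stores RNA for the early embryo, so a whole fish with an ovary holds many such transcripts. In the oocyte and zona pellucida group, 27 members were tested, of which 0 rose and 14 fell, with a median log2 fold change of −4.32. Without scoliotic fish 1, 0 rose and 27 fell, without scoliotic fish 2, 0 rose and 25 fell, without scoliotic fish 3, 0 rose and 8 fell, without heterozygote 1, 0 rose and 8 fell, without heterozygote 2, 0 rose and 8 fell, and without heterozygote 3, 0 rose and 8 fell. The counts turned on single fish, but in all 27 members every scoliotic fish was lower than every heterozygote. Over all 22756 genes tested the groups did not overlap in 53.0%, and in 6178 genes the scoliotic fish were the lower. The 27 members share a tissue, so they are not 27 separate results. *zp3b*, an egg coat protein, had 94.7, 0.731 and 8.62 CPM in scoliotic fish, against 686, 528 and 954 CPM in heterozygotes (log2 fold change −4.39, SE 1.48, adjusted p = 0.0553); it was called without scoliotic fish 1 (adjusted p = 0.00562) and without scoliotic fish 2 (adjusted p = 0.0274). Scoliotic fish 1 thus held over 100 times as much *zp3b* as scoliotic fish 2, which had almost none. *zp2.5*, another coat protein, was called in every subset of fish, with 1.03, 0 and 0 CPM in scoliotic fish, against 44.6, 72.6 and 202 CPM in heterozygotes. Its log2 fold change of −8.27 was −7.66 without scoliotic fish 2 and −7.41 without heterozygote 3, and scoliotic fish 1 held all the reads of its group. *rbpms2b*, an RNA-binding protein of early oocytes, had 34.4, 28.9 and 23.4 CPM in scoliotic fish, against 138, 89.9 and 167 CPM in heterozygotes (log2 fold change −2.19, SE 0.25, adjusted p = 0.00131) and varied less among fish.

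Germ cell, piRNA and meiosis genes followed: 21 members were tested, of which 1 rose and 15 fell, with a median log2 fold change of −3.35. Without scoliotic fish 3, 1 rose and 8 fell of 22 tested, without heterozygote 1, 0 rose and 7 fell, and without heterozygote 3, 1 rose and 6 fell. *tdrd6*, a Tudor protein of the germ plasm, had 26.5, 5.16 and 4.16 CPM in scoliotic fish, against 113, 82.4 and 137 CPM in heterozygotes (log2 fold change −3.22, adjusted p = 0.0137, and −4.56 without scoliotic fish 1). *piwil1*, the zebrafish Piwi protein of ovary and testis, had 33.1, 1.5 and 5.27 CPM in scoliotic fish, against 148, 96.9 and 144 CPM in heterozygotes; its log2 fold change was −3.29, and −5.25 without scoliotic fish 1. The adjusted p was 0.0398, and 0.101 without scoliotic fish 3, 0.0965 without heterozygote 1, 0.0709 without heterozygote 2 and 0.0919 without heterozygote 3. Of the gonad somatic and steroid genes, 26 members were tested, of which 2 rose and 5 fell, with a median log2 fold change of −0.38. That is 26.9% called, below the 36.9% of all genes. The 19.2% that fell was near the 18.5% of all genes, and 7.69% rose, against 18.4%. Without heterozygote 1, 0 rose and 3 fell, and without heterozygote 3, 0 rose and 3 fell. *cyp17a1*, an enzyme of androgen and estrogen synthesis, had 7.17, 1.72 and 6.14 CPM in scoliotic fish, against 29.1, 24.1 and 63.3 CPM in heterozygotes (log2 fold change −2.96, SE 0.59, adjusted p = 0.00882). Vitellogenins, the yolk proteins that the liver of egg-laying females makes, were barely present, with 2 of 7 tested and none called.

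The 5 ovary markers summed to 1.63 to 210.3 CPM in scoliotic fish, against 1187 to 1970.0 CPM in heterozygotes, with 1.26 to 507 CPM in non-scoliotic homozygotes and 2074 to 2363 CPM in AB fish. All 5 were present in the table, 2 of them fell in the test and none rose, and *gdf9*, which oocytes secrete, had no reads in scoliotic fish 2 and lost its call without scoliotic fish 3 or any 1 heterozygote. The 3 testis markers summed to 6.86 to 27.3 CPM in scoliotic fish, against 28.5 to 35.2 CPM in heterozygotes, and none of them was called. Every heterozygote and every AB fish lay above every homozygote on the ovary sum, and the homozygotes of either kind ranged widely. Zebrafish sex is set late and not by a single locus in laboratory strains, sex is not given for these fish, and the part of ovary content in any other gene's difference was not tested.

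**Figure D3:**
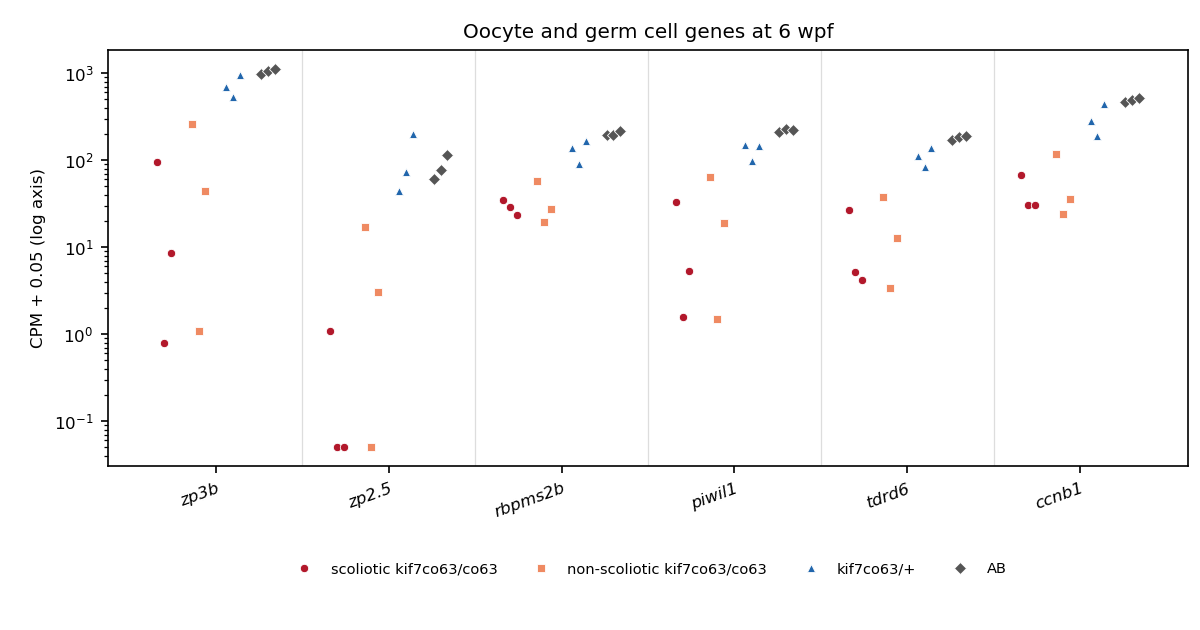
Levels of 6 oocyte and germ cell genes in each fish, as CPM plus 0.05 on a log axis, with a point per fish for scoliotic homozygotes, non-scoliotic homozygotes, heterozygotes and AB fish (3 each). The 3 scoliotic fish are spread widely and lie below the 3 heterozygotes, as in *zp3b* with 0.731 to 94.7 CPM against 528 to 954 CPM.

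In lipid metabolism the genes of cholesterol synthesis and uptake leaned higher. Of 26 members tested, 12 rose and 0 fell, with a median log2 fold change of 0.93. The share that rose was 46.2%, against 18.4% of all genes. Without scoliotic fish 2, 13 rose and 2 fell, and the median was 0.51. Without scoliotic fish 1, 18 rose and 0 fell, and the median was 1.16. Leaving out heterozygote 1, 2 or 3 left 9 that rose and 0 that fell. *hmgcs1*, which makes the precursor of mevalonate, had 270.2, 917 and 369 CPM in scoliotic fish, against 87.9, 108 and 87.8 CPM in heterozygotes, with a log2 fold change of 2.45 that was 1.76 without scoliotic fish 2. *srebf2*, the transcription factor that senses sterols, had 107, 119 and 111 CPM in scoliotic fish, against 55.4, 64.8 and 74.9 CPM in heterozygotes (log2 fold change 0.79, SE 0.14, adjusted p = 0.00557). AB fish had 557, 553 and 504 CPM of *hmgcs1*, within the scoliotic range. Set against AB, heterozygotes had 2 genes of this group higher and 20 lower, and scoliotic fish had 5 higher and 3 lower. Of the apolipoproteins, 24 members were tested, of which 8 rose and 2 fell, with a median log2 fold change of 0.22. The share called, 41.7%, was near the 36.9% of all genes, with 33.3% that rose and 8.33% that fell. *apobb.1*, the zebrafish apolipoprotein B that scaffolds lipoproteins, had 6201, 7153 and 5866 CPM in scoliotic fish, against 2865, 2895 and 2946 CPM in heterozygotes (log2 fold change 1.14, SE 0.098, adjusted p = 0.000556), whereas *apoa4b.1* fell to 298, 265 and 310.4 CPM in scoliotic fish, against 523, 484 and 462 CPM in heterozygotes (log2 fold change −0.75, SE 0.11, adjusted p = 0.00318) and its neighbour in the family *apoa4b.2* rose by 1.27.

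Gut genes were often called, in both directions: of the intestinal epithelium group, 35 members were tested, of which 10 rose and 15 fell, with a median log2 fold change of −0.39. That is 71.4% called, against 36.9% of all genes. *vil1*, the actin bundler of the brush border, had 743, 791 and 699 CPM in scoliotic fish, against 313, 355 and 332 CPM in heterozygotes (log2 fold change 1.16, SE 0.11, adjusted p = 0.000755). *chia.3*, a chitinase of the stomach and gut, fell to 811, 748 and 670.2 CPM in scoliotic fish, against 2593, 2506 and 2388 CPM in heterozygotes (log2 fold change −1.75, SE 0.10, adjusted p = 0.000177). Liver plasma proteins, complement and coagulation factors gave 14 that rose and 11 that fell among 68, or 36.8% called, about the 36.9% of all genes. Without heterozygote 1, 7 rose and 8 fell. *serpina1l*, an antitrypsin relative, had 331, 368 and 427 CPM in scoliotic fish, against 707, 882 and 762 CPM in heterozygotes (log2 fold change −1.06, SE 0.15, adjusted p = 0.00242), and the summed liver markers were 10816 to 13427 CPM in scoliotic fish, against 8258 to 11172 CPM in heterozygotes. The exocrine pancreas enzymes were variable between fish: 4 rose and 1 fell among 24. That is 20.8% called, below the 36.9% of all genes. Without scoliotic fish 1, 1 rose and 0 fell, without scoliotic fish 2, 9 rose and 1 fell, without scoliotic fish 3, 1 rose and 3 fell, without heterozygote 1, 1 rose and 0 fell, without heterozygote 2, 2 rose and 0 fell, and without heterozygote 3, 1 rose and 1 fell.

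Eye genes were called in both directions. Of opsins and phototransduction genes, 58 members were tested, of which 15 rose and 12 fell, with a median log2 fold change of −0.033. The shares were 25.9% that rose and 20.7% that fell, against 18.4% and 18.5% of all genes, so the falls were near the rate of all genes. *rho*, the rod opsin, had 1074, 1379.6 and 1253 CPM in scoliotic fish, against 665, 674 and 728 CPM in heterozygotes (log2 fold change 0.84, SE 0.13, adjusted p = 0.003). *opn1lw2*, a red cone opsin, had 161, 297 and 167 CPM in scoliotic fish, against 37.9, 39.7 and 38.4 CPM in heterozygotes (log2 fold change 2.43, SE 0.26, adjusted p = 0.000977). Other genes of light signalling were lower: *pde6c*, the cone phosphodiesterase, had 45.6, 64.4 and 54.0 CPM in scoliotic fish, against 132, 129 and 141 CPM in heterozygotes (log2 fold change −1.29, SE 0.15, adjusted p = 0.00131), and *sagb*, an arrestin of the S-antigen family, had 38.9, 53.1 and 44.3 CPM in scoliotic fish, against 130.5, 139 and 109.8 CPM in heterozygotes (log2 fold change −1.48, SE 0.16, adjusted p = 0.00106). AB fish had 55.2, 44.2 and 50.0 CPM of *pde6c* and 45.6, 37.7 and 39.0 CPM of *sagb*, near the scoliotic level. Of the lens crystallins, 54 members were tested, of which 1 rose and 13 fell, with a median log2 fold change of −0.24. That is 25.9% called, below the 36.9% of all genes, with 1.85% that rose and 24.1% that fell. Without scoliotic fish 1, 6 rose and 10 fell of 55 tested, and without heterozygote 2, 0 rose and 9 fell of 55 tested. Without scoliotic fish 2, 0 rose and 19 fell. The median was −0.013 without scoliotic fish 1 and −0.57 without scoliotic fish 2. *crygm1* had 297, 334 and 316 CPM in scoliotic fish, against 626, 673 and 589 CPM in heterozygotes (log2 fold change −1.0, SE 0.11, adjusted p = 0.0012).

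In the nervous system, myelin genes leaned lower: 25 members were tested, of which 1 rose and 8 fell, with a median log2 fold change of −0.24. That is 36% called, near the 36.9% of all genes. The shares were 4% that rose and 32% that fell, against 18.4% and 18.5% of all genes. Without scoliotic fish 1, 0 rose and 5 fell, and without heterozygote 1, 0 rose and 5 fell. *cnp*, an enzyme of myelinating cells, had 209.8, 179 and 192 CPM in scoliotic fish, against 329, 257 and 381 CPM in heterozygotes (log2 fold change −0.74, SE 0.16, adjusted p = 0.0128), and *plp1a*, a myelin proteolipid, had 10.5, 10.3 and 10.2 CPM in scoliotic fish, against 16.2, 14.8 and 15.2 CPM in heterozygotes (log2 fold change −0.58, SE 0.11, adjusted p = 0.00687). Of the neuronal genes, 35 members were tested, of which 8 rose and 1 fell, with a median log2 fold change of 0.23. That is 25.7% called, below the share of all genes, with 22.9% that rose and 2.86% that fell. Without heterozygote 1, 5 rose and 1 fell. *tubb5*, a beta tubulin, had 259.6, 349 and 254 CPM in scoliotic fish, against 119.9, 124 and 139 CPM in heterozygotes (log2 fold change 1.17, SE 0.16, adjusted p = 0.00222), and the summed neuron markers *elavl3* and *snap25a* overlapped at 275 to 385 CPM in scoliotic fish, against 349.8 to 378 CPM in heterozygotes. Of the 10 pituitary hormone genes tested none was called; growth hormone (*gh1*) had 38.9, 18.4 and 33.0 CPM in scoliotic fish and 39.3, 48.0 and 29.0 CPM in heterozygotes. In the pigment cell group, 33 members were tested, of which 5 rose and 5 fell, with a median log2 fold change of 0.13. That is 30.3% called, below the 36.9% of all genes. Without heterozygote 1, 3 rose and 3 fell. *bnc2*, which zebrafish need for their stripes, had 35.0, 58.3 and 40.3 CPM in scoliotic fish, against 16.2, 18.3 and 18.5 CPM in heterozygotes (log2 fold change 1.34, SE 0.20, adjusted p = 0.00308).

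Immune genes were called in both directions. Among neutrophil and macrophage genes, 35 members were tested, of which 14 rose and 5 fell, with a median log2 fold change of 0.29. The shares were 40% that rose and 14.3% that fell, against 18.4% and 18.5% of all genes. Without heterozygote 1, 8 rose and 3 fell. *mpx*, the neutrophil peroxidase, had 30.7, 23.6 and 40.3 CPM in scoliotic fish, against 14.1, 11.9 and 14.1 CPM in heterozygotes (log2 fold change 1.24, SE 0.20, adjusted p = 0.00421). *npsn*, a protease of neutrophils in zebrafish, had 74.8, 53.5 and 74.7 CPM in scoliotic fish, against 23.2, 21.5 and 7.24 CPM in heterozygotes (log2 fold change 1.97, SE 0.41, adjusted p = 0.0107), and *lcp1*, the leukocyte plastin, rose by 1.23. The chemokine gene *cxcl8b.1* fell, with 2.99, 1.31 and 0.874 CPM in scoliotic fish, against 17.8, 25.6 and 14.5 CPM in heterozygotes (log2 fold change −3.49, and −4.13 without scoliotic fish 1), as did *cebpb* above. The 3 myeloid markers summed to 30.6 to 49.2 CPM in scoliotic fish, against 13.7 to 16.0 CPM in heterozygotes. Among antigen presentation genes, 39 members were tested, of which 14 rose (35.9%) and 5 fell (12.8%), with a median log2 fold change of 0.41. *calr3b*, a calreticulin that folds glycoproteins in the endoplasmic reticulum, had 437, 387 and 448 CPM in scoliotic fish, against 55.6, 62.6 and 46.9 CPM in heterozygotes (log2 fold change 2.94, SE 0.15, adjusted p = 0.000114), and *mhc1zca*, a class I gene of the Z lineage, fell to 21.0, 18.9 and 27.0 CPM in scoliotic fish, against 90.5, 90.7 and 65.4 CPM in heterozygotes (log2 fold change −1.88, SE 0.19, adjusted p = 0.000889). Zebrafish haplotypes differ in the class I genes they carry, and whether these fish shared haplotypes was not tested. Of 8 immunoglobulin segments tested none was called. Of the lymphocyte genes, 35 members were tested, of which 6 rose and 6 fell, with a median log2 fold change of 0.036. That is 34.3% called, near the 36.9% of all genes. Without scoliotic fish 1, 3 rose and 4 fell, without scoliotic fish 3, 2 rose and 4 fell, and without heterozygote 1, 2 rose and 4 fell.

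Few genes of cilia were called. Of the intraflagellar transport and Bardet-Biedl syndrome genes, which build and serve the cilium, 28 members were tested, of which 2 rose and 3 fell, with a median log2 fold change of 0.025, so 17.9% were called against 36.9% of all genes. Without heterozygote 1, 1 rose and 1 fell, and without heterozygote 2, 2 rose and 1 fell. *kif3b*, a motor of outward transport, had 27.8, 29.0 and 27.1 CPM in scoliotic fish, against 22.0, 18 and 18.3 CPM in heterozygotes (log2 fold change 0.52, SE 0.11, adjusted p = 0.0109), and *ift27*, a small GTPase of the transport particle, fell to 3.50, 3.14 and 3.50 CPM in scoliotic fish, against 8.45, 8.74 and 10.3 CPM in heterozygotes (log2 fold change −1.44, SE 0.16, adjusted p = 0.0012). Of the motile cilium genes, 58 members were tested, of which 1 rose and 3 fell, with a median log2 fold change of −0.084, or 6.90% called. Without heterozygote 1, 0 rose and 2 fell of 59 tested, and without heterozygote 2, 0 rose and 1 fell. Of the 10 genes of the Reissner fiber and urotensin group tested, 2 rose, *ttr* (0.59), the thyroid hormone carrier, and *gata3* (0.48), a factor of spinal cord neurons. That share, 20%, was near the 18.4% of all genes that rose. Without scoliotic fish 1, 1 rose and 0 fell of 11 tested, without scoliotic fish 3, 0 rose and 0 fell of 11 tested, without heterozygote 1, 0 rose and 0 fell of 11 tested, and without heterozygote 3, 1 rose and 0 fell of 11 tested. *urp2*, a urotensin-related peptide that spinal neurons release to straighten the axis, had 0.449, 0.688 and 0.496 CPM in scoliotic fish and 0.443, 0.440 and 0.766 CPM in heterozygotes (adjusted p = 0.983).

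Among the kinesins, 41 members were tested, of which 10 rose and 1 fell, with a median log2 fold change of 0.012. That is 26.8% called, below the 36.9% of all genes. The shares were 24.4% that rose and 2.44% that fell, against 18.4% and 18.5% of all genes. *kif13ba* had 99.2, 96.6 and 99.9 CPM in scoliotic fish, against 46.8, 45.7 and 44.9 CPM in heterozygotes (log2 fold change 1.11, SE 0.089, adjusted p = 0.000483) and *kif5ba*, a conventional kinesin heavy chain, had 178, 176 and 169.6 CPM in scoliotic fish, against 98.1, 99.4 and 109 CPM in heterozygotes (log2 fold change 0.77, SE 0.10, adjusted p = 0.00202). The 1 that fell, *kif21b*, had 5.59, 3.22 and 6.40 CPM in scoliotic fish, against 14.0, 11.2 and 11.9 CPM in heterozygotes (log2 fold change −1.28, SE 0.26, adjusted p = 0.00947). Of the keratins, 20 members were tested, of which 3 rose and 2 fell, with a median log2 fold change of 0.04. That is 25% called, below the 36.9% of all genes. The shares were 15% that rose and 10% that fell, against 18.4% and 18.5% of all genes. Without heterozygote 1, 1 rose and 2 fell, without heterozygote 2, 1 rose and 2 fell, and without heterozygote 3, 0 rose and 3 fell. *krt15* fell to 43.4, 35.2 and 51.2 CPM in scoliotic fish, against 124, 137 and 91.4 CPM in heterozygotes (log2 fold change −1.44, SE 0.20, adjusted p = 0.00239), and *krt1-19d* fell to 86.4, 92.5 and 87.8 CPM in scoliotic fish, against 185, 164 and 149.7 CPM in heterozygotes (log2 fold change −0.90, SE 0.11, adjusted p = 0.00173). *krt4*, a keratin of the outer epidermis, had 373, 426 and 427 CPM in scoliotic fish and 562, 254 and 288 CPM in heterozygotes (log2 fold change 0.16, SE 0.29, adjusted p = 0.706); without heterozygote 1, which had the highest level of the 6, the log2 fold change was 0.59 and the adjusted p 0.0376. Non-scoliotic homozygotes had 1.91, 1.83 and 3.36 CPM of *krt4*, far below scoliotic fish (adjusted p = 0.000809 between the 2), while AB fish had 429.8, 371 and 355 CPM. In the paper, RT-qPCR on the same RNA did not show this rise of *krt4* in scoliotic over non-scoliotic fish, and its values varied widely between fish. The paper also describes stronger keratin staining in scoliotic fish.

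In other signalling pathways the share called in either direction was near the 36.9% of all genes. It was 32.1% for Wnt and planar cell polarity genes and 34.2% for BMP and TGF-beta genes. For growth hormone receptor and insulin-like growth factor genes it was 40%. Of the Wnt and planar cell polarity genes, 81 members were tested, of which 21 rose and 5 fell, with a median log2 fold change of 0.21. By direction the shares were 25.9% that rose and 6.17% that fell, against 18.4% and 18.5% of all genes. Without heterozygote 1, 11 rose and 3 fell, and without heterozygote 2, 14 rose and 3 fell. *fzd2*, a Wnt receptor, had 89.0, 103 and 98.7 CPM in scoliotic fish, against 49.5, 53.9 and 53.5 CPM in heterozygotes (log2 fold change 0.89, SE 0.11, adjusted p = 0.00152), and *ctnnb1*, beta-catenin, had 493, 549 and 523 CPM in scoliotic fish, against 289, 270.4 and 326 CPM in heterozygotes (log2 fold change 0.82, SE 0.12, adjusted p = 0.00261). Of the BMP and TGF-beta genes, 73 members were tested, of which 15 rose and 10 fell, with a median log2 fold change of −0.035. Without heterozygote 1, 8 rose and 6 fell of 74 tested. *bmp1a*, a protease that trims procollagen and activates growth factors, had 124, 123 and 119 CPM in scoliotic fish, against 46.0, 46.9 and 54.6 CPM in heterozygotes (log2 fold change 1.31, SE 0.11, adjusted p = 0.000533). Of the growth hormone receptor and insulin-like growth factor genes, 25 members were tested, of which 5 rose and 5 fell, with a median log2 fold change of 0.12. Without scoliotic fish 3, 2 rose and 4 fell of 26 tested, without heterozygote 1, 2 rose and 4 fell, and without heterozygote 3, 3 rose and 3 fell of 26 tested. *igf1* was not called at 0.30 (adjusted p = 0.459), and *igf2a* fell to 29.6, 24.1 and 24.7 CPM in scoliotic fish, against 60.5, 58.7 and 47.1 CPM in heterozygotes (log2 fold change −1.09, SE 0.14, adjusted p = 0.00162). Of the fatty acid binding proteins, 11 were tested and 3 rose (27.3%, against 18.4% of all genes), and 1 rose without heterozygote 1. *fabp7a*, of radial glia, rose by 1.04. Of genes often used as internal standards, 14 were tested, 3 rose and 4 fell, and 1 and 3 did so without heterozygote 1. The shares were 21.4% that rose and 28.6% that fell, against 18.4% and 18.5% of all genes. *actb1*, a cytoplasmic actin, had 2507, 827 and 2659.8 CPM in scoliotic fish, against 392, 391 and 454 CPM in heterozygotes (log2 fold change 2.28, SE 0.41, adjusted p = 0.00617), and *gapdh*, of glycolysis, had 2025, 2112 and 2133 CPM in scoliotic fish, against 3516, 3197 and 3039 CPM in heterozygotes (log2 fold change −0.64, SE 0.09, adjusted p = 0.00249), while *eef1a1l1* was not called at −0.066 (adjusted p = 0.52).

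**Figure D4:**
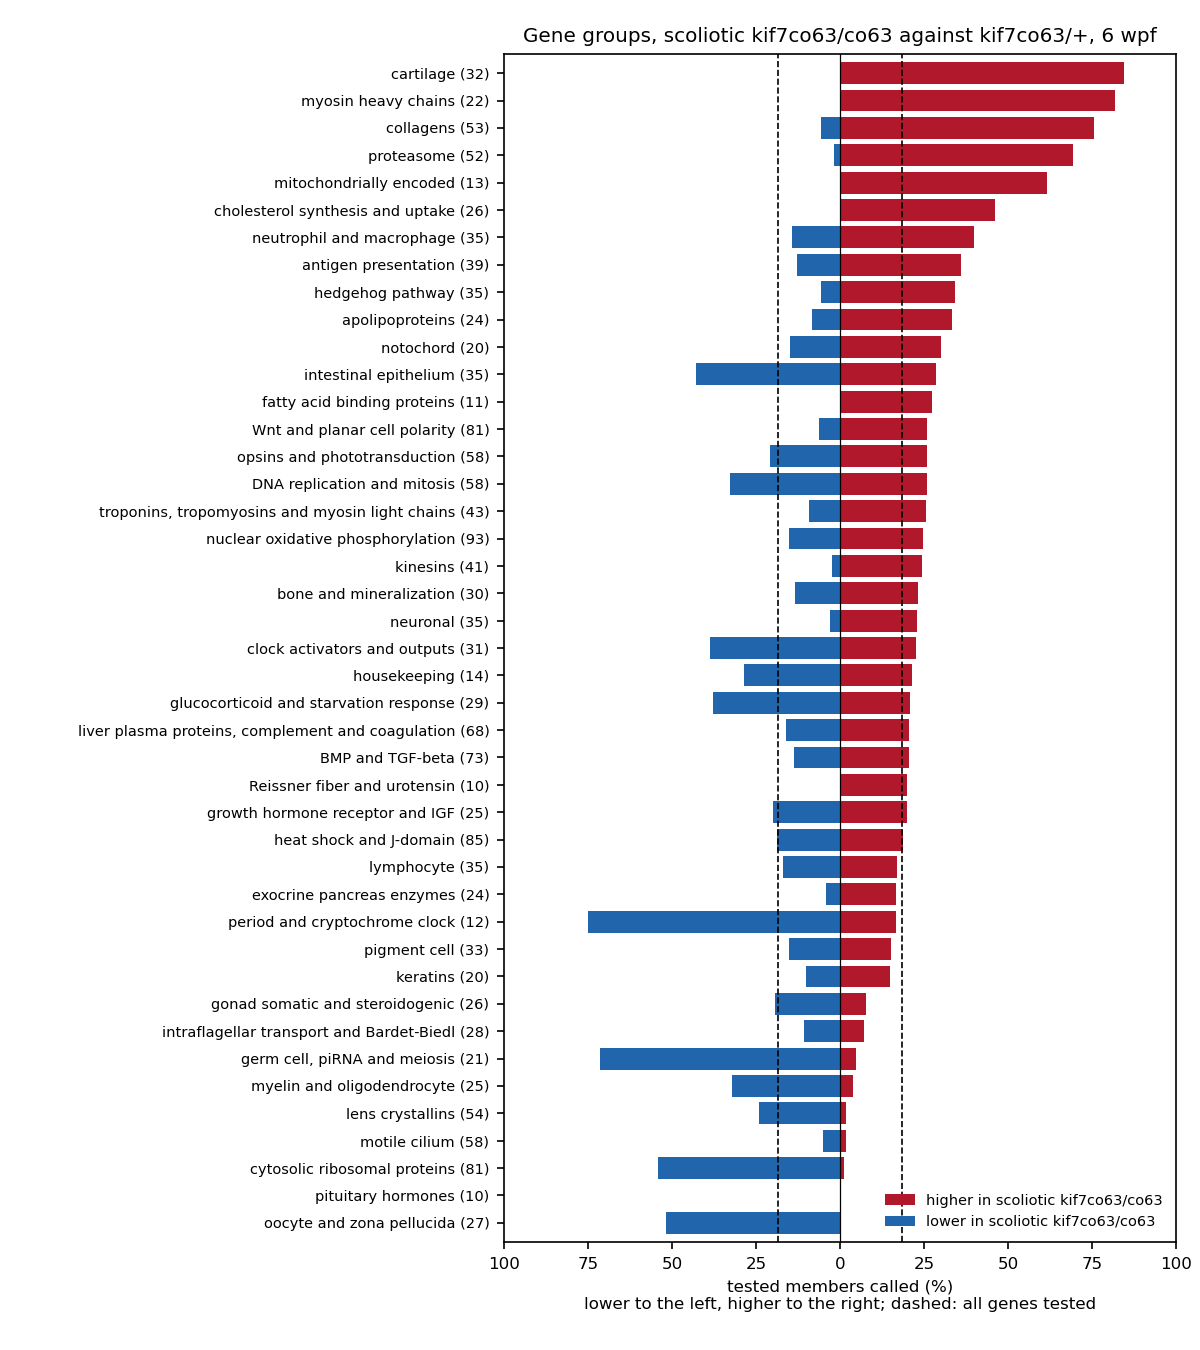
Share of the tested members of each gene group that rose (right) and fell (left) in scoliotic fish against heterozygotes, in percent, with dashed lines at the 18.4% and 18.5% of all 22756 genes tested; only groups with at least 10 tested members are drawn, and the number tested stands beside each name. Cartilage, myosin heavy chains and collagens have the longest bars to the right, and period and cryptochrome, germ cell and ribosomal protein genes the longest to the left.

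Among genes of at least 10 CPM whose symbol is not a clone name, the largest rises were in *CELA1 (1 of many)*, *fgd4a*, *abcc4*, *gck*, *ccl39.2*, *psmc1a*, *hbaa2* and *ampd3b*. *CELA1 (1 of many)* (ENSDARG00000043168), a member of the pancreatic elastase family whose copies may share reads, had 15.6, 7.09 and 34.6 CPM in scoliotic fish, against 0.0632, 0.0200 and 0.115 CPM in heterozygotes (log2 fold change 8.11, adjusted p = 0.000947, and 7.36 without scoliotic fish 3 and 8.76 without heterozygote 3). Non-scoliotic homozygotes had 0.0482, 0.0191 and 0 CPM of it, and AB fish 0, 0.118 and 0.0143 CPM. It lies on chromosome 22 (7497319 to 7508894), in the stretch of *BX511034.5*, *BX511034.1* and *si:ch211-59h6.1*, which are given below. *fgd4a*, an exchange factor for the GTPase Cdc42, had 16.2, 14.5 and 13.2 CPM in scoliotic fish, against 0.0632, 0.220 and 0.0957 CPM in heterozygotes (log2 fold change 6.82, and 7.47 without heterozygote 2). *abcc4*, an exporter of cyclic nucleotides and drugs, had 45.3, 15.6 and 46.3 CPM in scoliotic fish, against 0.232, 0.480 and 0.249 CPM in heterozygotes (log2 fold change 6.79, SE 0.57, adjusted p = 0.000527). Non-scoliotic homozygotes had 27.0, 25.4 and 21.7 CPM of *abcc4* and AB fish 8.91, 16.1 and 7.55 CPM, so the heterozygotes lay below all other groups at 6 wpf. At 4 days past fertilization heterozygous pools had 5.49 and 6.78 CPM of *abcc4*, against 15.7 and 15.5 CPM in homozygous pools. *abcc4* lies on chromosome 6 (7322587 to 7390458), near *dzip1* (7249531 to 7280299), which is given below. In *abcc4*, *gck* and *ccl39.2* scoliotic fish 2 was the lowest of its group. *gck*, the glucose sensor of liver and pancreas that feeding induces, had 89.1, 2.90 and 108 CPM in scoliotic fish, against 1.75, 0.860 and 1.59 CPM in heterozygotes, with an adjusted p of 0.0123 that was 0.0505 without heterozygote 3. *ampd3b*, an AMP deaminase, had 12.6, 13.5 and 11 CPM in scoliotic fish, against 0.717, 0.640 and 0.651 CPM in heterozygotes (log2 fold change 4.2, SE 0.18, adjusted p = 8.54e-05). *psmc1a*, a proteasome ATPase, had 26.6, 54.1 and 51.1 CPM in scoliotic fish, against 0.169, 2.80 and 2.01 CPM in heterozygotes (log2 fold change 4.71, and 5.32 without heterozygote 2), and *ccl39.2*, a chemokine, had 18.4, 1.16 and 19.5 CPM in scoliotic fish, against 0.358, 0.380 and 0.326 CPM in heterozygotes (log2 fold change 5.19, SE 1.02, adjusted p = 0.00818). *hbaa2*, an adult alpha globin, had 23.7, 1.46 and 9.68 CPM in scoliotic fish, against 0.379, 1.00 and 0.134 CPM in heterozygotes; its adjusted p of 0.0186 was 0.0756 without heterozygote 1 and 0.0635 without heterozygote 3, and its log2 fold change of 4.51 was 3.47 without scoliotic fish 1 and 5.50 without heterozygote 2.

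Under the same limits the largest falls were in *med7*, *ctsba*, *lonrf1*, *ces3*, *qdprb2*, *zp2.5*, *nr1d1* and *fosb*. *lonrf1*, a ring finger protein with a Lon domain, had 0.0449, 0.0430 and 0.0472 CPM in scoliotic fish, against 52.2, 42.3 and 42.6 CPM in heterozygotes (log2 fold change −9.91, SE 0.20, adjusted p = 3.31e-06). *ces3*, a carboxylesterase, had 0.584, 1.55 and 0.425 CPM in scoliotic fish, against 533, 581 and 511 CPM in heterozygotes, with a log2 fold change of −9.30 that was −10.06 without scoliotic fish 2. *ces2*, another carboxylesterase and 1 of the 4 genes with the smallest p among those that fell, had 4.22, 4.60 and 4.27 CPM in scoliotic fish, against 441, 448 and 434 CPM in heterozygotes (log2 fold change −6.66, SE 0.13, adjusted p = 3.31e-06). In both esterases non-scoliotic homozygotes lay between, with 148, 102 and 125 CPM of *ces3* and 100.5, 65.4 and 101 CPM of *ces2*, and differed from scoliotic fish (adjusted p = 0.00477 and 0.000877), while AB fish had 417, 481 and 370.1 and 273, 302 and 265 CPM. *qdprb2*, a dihydropteridine reductase whose symbol 2 identifiers share, rested on heterozygote 3: 0.0449, 0 and 0.0472 CPM in scoliotic fish, against 0.864, 1.26 and 43.4 CPM in heterozygotes, with a log2 fold change of −8.86 that was −5.03 without that fish, and adjusted p-values of 0.0539, 0.0572 and 0.0617 without scoliotic fish 1, 2 and 3 in turn.

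Of the 4 genes with the smallest p-values among those that rose, *rorcb* and *ampd3b* are described above. *tuba8l*, an alpha tubulin, had 907, 999 and 897 CPM in scoliotic fish, against 169, 183 and 167 CPM in heterozygotes (log2 fold change 2.43, SE 0.11, adjusted p = 9.25e-05). *palmda*, a palmdelphin of muscle and other cells, had 55.3, 64.7 and 60.2 CPM in scoliotic fish, against 11.7, 9.66 and 10.5 CPM in heterozygotes (log2 fold change 2.5, SE 0.12, adjusted p = 9.25e-05). In both genes the fish of each group were close together, and non-scoliotic homozygotes had 783, 821 and 943 CPM of *tuba8l*.

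Some genes had reads in 1 group and next to none in the other. Taking genes whose reads did not exceed 3 in any fish of 1 group and reached 100 in each fish of the other, 31 (0.0972% of the table) were all but unread in scoliotic fish and 11 (0.0345%) in heterozygotes. Of the 31, 22 also had at most 3 reads in every non-scoliotic homozygote, and 22 had at least 100 in every AB fish. Of the 11, 4 had at most 3 reads in every non-scoliotic homozygote and 9 in every AB fish. The 31 lie on 16 chromosomes and the 11 on 4. Reads are counted against 1 reference genome, so a gene that a fish lacks, or carries in a form too different to map, also gives 0 reads.

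*si:dkey-14d8.6* (chromosome 4, 5531583 to 5533803) had 0, 0 and 0 reads in scoliotic fish, against 3351, 4860 and 3371 reads in heterozygotes, with 0, 23 and 2 in non-scoliotic homozygotes and 5050, 5781 and 9266 in AB fish. Against a floor of 3 reads per library it was at least 1146-fold lower in scoliotic fish. *ctsba*, a cathepsin B protease (chromosome 17, 32622931 to 32631514), had 0, 0 and 1 reads in scoliotic fish, against 1842, 7907 and 1266 reads in heterozygotes, with 0, 0 and 0 in non-scoliotic homozygotes and 0, 21166 and 0 in AB fish. The AB fish were themselves divided in *ctsba*, with all its reads in 1 of the 3. *si:dkeyp-73d8.9* and *si:dkeyp-73d8.6* (chromosome 2, 32642338 to 32643738 and chromosome 2, 32621677 to 32624577), which are neighbours, were at least 887-fold and 884-fold lower; the first had 0, 0 and 0 reads in scoliotic fish, against 3642, 2313 and 2963 reads in heterozygotes, with 883, 616 and 749 in non-scoliotic homozygotes and 3975, 4987 and 5577 in AB fish.

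*med7*, a subunit of the Mediator complex (chromosome 14, 34064249 to 34065937), had 0, 0 and 0 reads in scoliotic fish, against 851, 1002 and 1160 reads in heterozygotes, with 0, 0 and 0 in non-scoliotic homozygotes and 3175, 962 and 3142 in AB fish, which makes it at least 297-fold lower in scoliotic fish. It stands beside other genes of the same kind on that chromosome: *itk* (chromosome 14, 34045284 to 34074510), a kinase of T cells, and *zdhhc24* (chromosome 14, 33939213 to 33945799), an acyltransferase, both named here after their values were seen. *lonrf1* (chromosome 14, 34068075 to 34092744) lies in the same stretch, with 2, 2 and 2 reads in scoliotic fish, against 2478, 2114 and 2225 reads in heterozygotes, with 3, 13 and 4 in non-scoliotic homozygotes and 1426, 607 and 1757 in AB fish. The stretch thus held several genes with reads in all heterozygotes and few or none in any homozygote. By these coordinates *itk* overlaps *med7* and *lonrf1*, so the reads of these genes are not clearly separate. A second such stretch lies on chromosome 12, with *dlgap5*, *ccz1*, *neurl2* and *pgp* (17633354 to 18568834), also named after their values were seen. *dlgap5*, a spindle protein, had 2, 0 and 2 reads in scoliotic fish, against 264, 152 and 353 reads in heterozygotes, with 0, 2 and 1 in non-scoliotic homozygotes and 547, 3 and 706 in AB fish. *pgp*, a phosphatase, had 2, 1 and 0 reads in scoliotic fish, against 147, 118 and 174 reads in heterozygotes, with 3, 2 and 0 in non-scoliotic homozygotes and 217, 5 and 342 in AB fish. In all 4 genes AB fish 2 had at most 5 reads while AB fish 1 and 3 had at least 217, so the AB fish were not of 1 kind there.

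In the other direction, *si:ch73-168d20.1* (chromosome 23, 45077358 to 45119805) had 497, 366 and 277 reads in scoliotic fish, against 0, 0 and 0 reads in heterozygotes, with 335, 775 and 232 in non-scoliotic homozygotes and 244, 299 and 257 in AB fish, or at least 142-fold more in scoliotic fish. *BX511034.5* and *BX511034.1* (chromosome 22, 7522728 to 7539414 and chromosome 22, 7542472 to 7563593) were at least 132-fold and 124-fold higher. At 4 days past fertilization heterozygous pools did have reads, with 1.96 and 1.63 CPM of *BX511034.5* and 2.29 and 2.39 CPM of *BX511034.1*. Homozygous pools then had 1.06 and 1.11 CPM and 1.73 and 1.72 CPM. The fourth, *si:ch211-59h6.1* (chromosome 22, 7675388 to 7702958), had 543, 489 and 502 reads in scoliotic fish, against 0, 0 and 1 reads in heterozygotes, with 0, 0 and 0 in non-scoliotic homozygotes and 1, 2 and 0 in AB fish. These are predicted genes named after clones, and their functions are not given here. Of those with gene symbols, *dzip1*, a basal body protein that zebrafish need for hedgehog signalling and for primary cilia, was named after its values were seen (chromosome 6, 7249531 to 7280299). It had 109, 101 and 138 reads in scoliotic fish, against 2, 0 and 2 reads in heterozygotes, with 84, 95 and 84 in non-scoliotic homozygotes and 43, 52 and 37 in AB fish, a ratio of 97.6 (95% counting interval 37.8 to 360.3), and so the heterozygotes were also lower than AB fish.

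**Figure D5:**
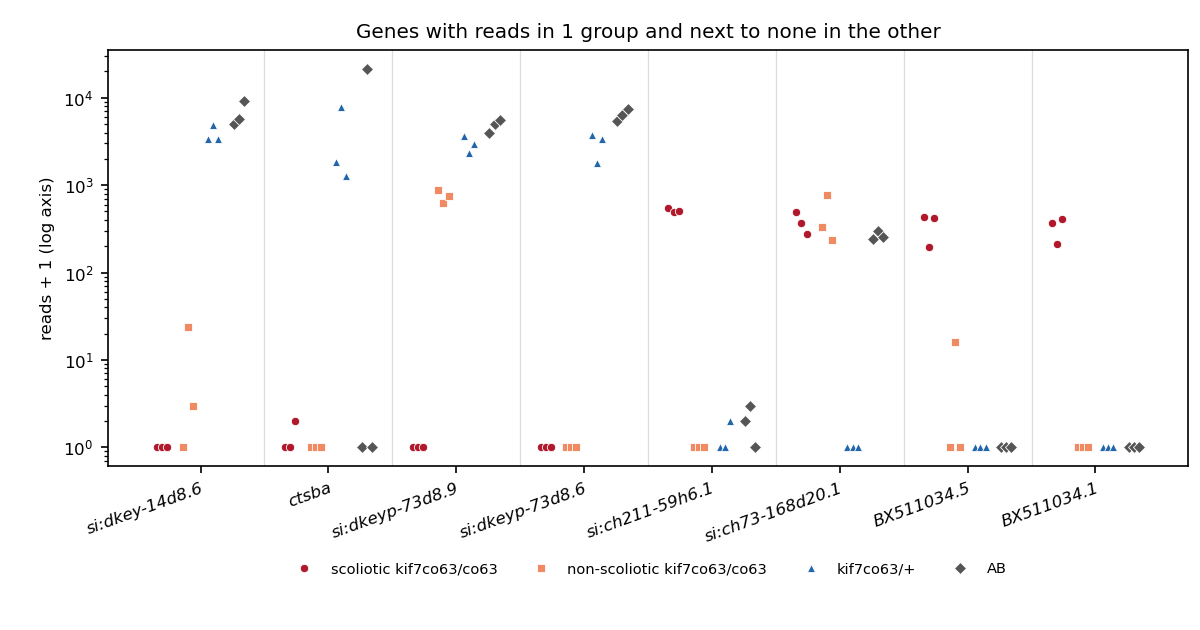
Reads plus 1, on a log axis, of the 4 genes with the most reads in each direction among genes with 3 reads or fewer per fish in 1 group and 100 or more per fish in the other, with a point per fish for scoliotic homozygotes, non-scoliotic homozygotes, heterozygotes and AB fish (3 each). The 4 genes on the left have 0 or 1 read in scoliotic fish and at least 1266 in heterozygotes.

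Around *kif7*, within 2 Mb to either side on chromosome 7, 53 genes other than *kif7* were tested and 20 were called, 6 higher and 14 lower. That is 37.7%, against 36.9% of all genes tested, a share near that of the genome as a whole. Over the 25 chromosomes the share ran from 31.9% on chromosome 15 to 42.1% on chromosome 18. *si:ch73-119p20.1* (chromosome 7, 13375565 to 13381129) had 5, 1 and 1 reads in scoliotic fish, against 985, 825 and 857 reads in heterozygotes, and 36.6, 33.8 and 33.4 CPM in AB fish. *rcn1*, a calcium-binding protein of the secretory pathway (chromosome 7, 15818778 to 15830251), had 69.2, 73.1 and 74.2 CPM in scoliotic fish, against 20.1, 21.4 and 18.2 CPM in heterozygotes (log2 fold change 1.86, SE 0.10, adjusted p = 0.00015). *rhcga*, an ammonia channel of gill and skin, had 6.13, 10.3 and 10.6 CPM in scoliotic fish, against 27.7, 26.5 and 30.1 CPM in heterozygotes (log2 fold change −1.64, SE 0.22, adjusted p = 0.00209), and *dagla*, which makes an endocannabinoid, had 10.7, 8.83 and 8.86 CPM in scoliotic fish, against 24.7, 24.4 and 21.8 CPM in heterozygotes (log2 fold change −1.32, SE 0.13, adjusted p = 0.000745). Because the allele and its neighbourhood came from the injected line, sequence differences linked to *kif7* and effects of the allele cannot be told apart there.

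The comparison between scoliotic and non-scoliotic homozygotes, which share the *kif7* genotype and differ in curvature, called 84 of 22087 genes (0.380%). Of these, 54 were higher and 30 lower in scoliotic fish, and 36 genes were called without scoliotic fish 1. Of the genes called against heterozygotes, 8004 were tested in this comparison and 60 were called. At an unadjusted p under 0.05 it held 1435 genes. Some genes were all but unread in 1 kind of homozygote only. *mhc1uma* had 149, 111 and 121 reads in scoliotic fish and 0, 0 and 0 in non-scoliotic homozygotes. *mical3a* had 0, 1 and 0 reads in scoliotic fish and 70, 61 and 32 in non-scoliotic homozygotes. Whether the 2 kinds of homozygote also differed in family or haplotype was not tested, so the 84 genes cannot be assigned to curvature. Non-scoliotic homozygotes against heterozygotes had 8348 of 22800 genes called (36.6%), scoliotic fish against AB 9583 of 22741 (42.1%) and heterozygotes against AB 8352 of 23075 (36.2%). These comparisons share fish with each other. At 4 days past fertilization (dpf), where the files used here hold 2 pools of embryos per genotype, homozygotes against heterozygotes had 8 of 22349 genes called (0.0358%) and 1173 at an unadjusted p under 0.05. The 2 homozygous pools were unlike each other, with 7.60% and 3.26% of reads in mitochondrial genes, against 4.23% and 4.24% in heterozygous pools. With 2 pools that differ so, few calls at 4 dpf do not show that the genotypes were alike. The difference of scoliotic homozygotes from heterozygotes at 6 wpf was set against that of homozygous pools, which were not chosen by curvature, from heterozygous pools at 4 dpf in a contrast over 10 libraries, which was called in 1250 of 24055 genes (5.2%), 530 more positive and 720 more negative at 6 wpf. That count ran from 117 without *kif7co63/+* pool 1 at 4 dpf to 6193 without *kif7co63/co63* pool 2 at 4 dpf, and it was 307 without heterozygote 1 at 6 wpf, so it rests on single libraries.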

How the data were processed

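RNA of 18 libraries was sequenced in 7 groups, and 6 of them, single whole fish at 6 wpf, make up this comparison. Per the labels and the submitters' processing notes, reads were filtered with fastp, mapped to GRCz11 with HISAT2 and counted per gene with featureCounts, and StringTie and DESeq2 are also named. The deposited counts are whole reads per gene, not normalized by the authors, and symbols and coordinates stand in the same table. The annotation release and the strand setting of the counting are not given in the sources used here, so a gene and an overlapping or antisense neighbour cannot be told apart. A symbol is shared by another identifier in 3911 genes. A second deposited table holds the authors' own comparison of these 6 fish (log2 fold changes, p-values, normalized counts and FPKM). It was not used, and neither were its 18 per-sample columns.

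Counts were tested with edgeR 4.0.16 in R 4.3.3 (TMM, estimateDisp, glmQLFit, glmQLFTest) with only the compared fish in each fit. filterByExpr (counts of 10 per library and 15 in total) set which genes were tested, and the threshold was an adjusted p of 0.05 (Benjamini-Hochberg, all genes tested). CPM used TMM factors over all 18 libraries. DESeq2 1.42.0 was an alternative. Replicates differed by far more than sampling noise, and none was counted as a repeat. The scripts were tested on simulated data. Tables were written with pandas 2.3.3 in Python 3.11.15, and figures with matplotlib 3.10.9.

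Genes were named by rule: *kif7*, the 8 largest called changes each way among genes of at least 10 CPM with a symbol that is not a clone name, the 4 smallest p-values each way, 101 of 108 anchor genes found in the table, the 3 most abundant called members each way of 48 gene groups, the 4 genes each way with the most reads among genes with 3 reads or fewer per fish in 1 group and 100 or more per fish in the other, and called genes of at least 5 CPM within 2 Mb of *kif7*. The result of 1 anchor gene is not reported here. The comparison, the groups and these rules were chosen with earlier results of these data known. Lower limits of folds used 3 reads per library, and intervals of ratios of reads are exact at 95% and cover counting error only. The alternatives were RLE normalization, DESeq2, no filter, a filter at 1 CPM, 1 fit of all 12 fish, blocking on the replicate number, and leaving out each fish in turn.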

Additional observations from a re-analysis of the deposited data

Results flagged for a closer look

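The difference between *kif7co63* homozygotes and heterozygotes was not the same at the 2 ages in 1250 genes by a test of the difference itself (scoliotic fish against heterozygotes at 6 wpf, less homozygous against heterozygous pools at 4 dpf). Among the named genes, the 4 with the smallest p in that test were *ciarta*, *ces2*, *nr1d1* and *per1a*. For *ciarta* the difference was −5.10 on the log2 scale (SE 0.24), with 38.4 and 34.6 CPM in kif7co63/co63 pools, against 25.9 and 29.1 CPM in kif7co63/+ pools at 4 dpf. For *ces2* it was −5.67 (SE 0.29), with 179 and 227 CPM in kif7co63/co63 pools, against 444 and 359 CPM in kif7co63/+ pools. For *nr1d1* it was −8.36 (SE 0.54), with 25.9 and 60.9 CPM in kif7co63/co63 pools, against 28.2 and 36.0 CPM in kif7co63/+ pools. For *per1a* it was −6.34 (SE 0.43), with 12.9 and 8.20 CPM in kif7co63/co63 pools, against 5.60 and 7.20 CPM in kif7co63/+ pools. At 4 dpf none of these 4 genes was called between homozygous and heterozygous pools, but the homozygous pools were unlike each other, as given above. The pools hold whole embryos of another age, so age, curvature and sampling cannot be told apart.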

How the results depend on the processing

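The number of genes called between scoliotic fish and heterozygotes was 8389. It ran from 5318 without heterozygote 1 to 7971 when single fish were left out, and was 8375 with RLE normalization and 9533 with DESeq2. Between scoliotic and non-scoliotic homozygotes 84 genes were called, 424 with DESeq2, and 36 to 92 when single fish were left out. The difference between ages was called in 1250 genes, in 2889 with all 18 libraries in 1 fit, in 3040 with DESeq2, in 428 with the replicate number as a block (an alternative chosen after the data were seen), and in 117 to 6193 when single libraries were left out. The cause was not tested.

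Replicate numbers are shared by the groups in the labels. The deviations of same-numbered fish from their group means had correlations of 0.019, 0.049 and −0.085, so the numbers were not taken as pairs, and with the replicate number as a block 6305 genes were called. Of 156 called genes in a subset of those named, 141 kept their direction and their call under all alternatives run. That subset does not hold every gene of the rules that lost its call when 1 fish was left out. Among all genes that the rules name, *bco1* was called in 1 of the 6 fits without 1 fish and *acvr2aa* in 4. The 1 gene of the subset that turned round, *fkbp5*, was not called. Its log2 fold change ran from −3.19 without scoliotic fish 2 to 0.57 when other fish were left out. Of 576 counts of called members in the 48 gene groups under alternatives, 505 stayed within 1.5 times. The summed oocyte and zona pellucida level had a log2 ratio that moved to −5.76 without scoliotic fish 1.

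With 3 fish a group, an exact permutation test of a single value cannot go below p = 0.1, so no such p is given. Sex and hour of sampling are not given, whole fish mix all tissues, and reads are counted against 1 genome.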

Other observations

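Values that belong to no comparison above were looked at for genes read in only part of the fish. The AB fish were themselves not of 1 kind: *ctsba* had 0, 21166 and 0 reads in AB fish 1, 2 and 3, and *neurl2*, part of a ubiquitin ligase of muscle, had 324, 0 and 280. *mhc1uma*, a class I gene of the U lineage, had 149, 111 and 121 reads in scoliotic fish and none in non-scoliotic homozygotes, heterozygotes or AB fish. *ptgdsa*, a prostaglandin D synthase, had 0, 0 and 0 reads in scoliotic fish, against 220, 334 and 178 reads in heterozygotes, with 0, 0 and 0 in non-scoliotic homozygotes and 373, 312 and 552 in AB fish. *shisa4*, a membrane protein, had 0, 0 and 0 reads in scoliotic fish, against 179, 255 and 114 reads in heterozygotes, with 0, 0 and 1 in non-scoliotic homozygotes and 491, 377 and 401 in AB fish. These genes were chosen after their values were seen.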
